A study of Mus musculus with 5 samples.

Results

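The genes that make microRNAs (miRNAs) and load them into silencing complexes were followed together with Lin28a and Lin28b in mouse embryonic stem (ES) cells and during their differentiation to spinal motor neurons (MNs). These were 10 genes (Dicer1, Drosha, Dgcr8, Xpo5, Ago1, Ago2, Tarbp2, Tnrc6a, Lin28a and Lin28b), chosen by name, of 19897 genes with a named probe. All probes of the 10 genes were taken, 14 in total. Each of 5 time points was measured on 1 Agilent one-colour array of Cy3-labelled total RNA from wild-type, male cells. The samples were undifferentiated ES cells (ES), embryoid bodies after 8 h of retinoic acid (Day2), embryoid bodies after 1 day (Day3) and 2 days (Day4) of retinoic acid, and MNs after 5 days of it (Day7). No sample carried a mutation or an inhibitor, and no untreated embryoid bodies of the same age were measured, so time in culture and the inducers cannot be told apart. The Day7 label counts 5 days of retinoic acid, while the treatment protocol in the same labels ends the inducers at day 5 after a start at day 2, and this difference was not resolved. The labels give retinoic acid with Shh as inducers and the methods give a smoothened agonist, SAG, in place of Shh. The labels give the tissue of the Day7 sample as embryoid bodies and name no sorting of MNs.

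A miRNA is cut from a long transcript by Drosha and its partner Dgcr8 in the nucleus, exported as a hairpin by Xpo5 and cut again in the cytoplasm by Dicer1 with Tarbp2. An Argonaute protein such as Ago1 or Ago2 then holds the mature strand, and Tnrc6a (GW182) links it to the enzymes that shorten and decap target mRNAs. Lin28a and Lin28b are RNA-binding proteins of early embryonic and pluripotent cells that block the processing of the let-7 family, and their mRNAs are themselves known let-7 targets. The arrays measured the mRNAs of these proteins and not the mature miRNAs.

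The mature let-7 sequences are shown because let-7 is the family that Lin28 holds back. They come from RefSeq (GRCm38.p6), and capitals mark the seed, bases 2 to 8, through which a miRNA pairs with its targets.
let-7a-5p: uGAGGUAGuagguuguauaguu
let-7b-5p: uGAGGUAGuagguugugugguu
let-7c-5p: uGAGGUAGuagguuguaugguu
let-7d-5p: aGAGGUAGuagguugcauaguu
let-7e-5p: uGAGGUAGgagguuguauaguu
let-7f-5p: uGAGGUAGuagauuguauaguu
let-7g-5p: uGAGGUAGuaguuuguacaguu
let-7i-5p: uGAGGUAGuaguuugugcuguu
These 8 forms share the seed GAGGUAG, and 11 mature names in the table carry it, among them miR-98-5p.

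Signals are given as quantile-normalized log2 intensity of one probe. Differences are log2 differences between arrays, and a gene was called raised or lowered at a fixed size of 2-fold. No time point had a replicate and no test was run, so the number of arrays limits the precision of every value. The only error measured was that within an array: repeated spots of a probe had a median SD of 0.05 (Day7) to 0.10 (Day2) in log2 signal. Neighbours closer than this in the order of levels were not told apart, and wider steps are still open to the spread between samples, which this SD leaves out. A probe-level check was possible for genes with more than one probe: for 2928 genes with 2 probes well above background in ES cells and on Day7, the log2 differences of the probes lay apart by a median of 0.56, and by over 1 in 29.0% of genes. The Day2 array stood apart from the rest, with 86.7% of its mouse probes well above background against 57.5% to 65.7% on the other arrays. The Day7 array alone lay on a second slide, so in any comparison with it the slide and the day of differentiation cannot be told apart. On each of the 5 arrays all 14 probes of the 10 genes exceeded background (the scanner's well-above-background flag), and none was saturated.

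The Lin28 genes held a high signal through Day4 and were lowered on Day7, whereas the other 8 genes had log2 differences between -1.44 and 1.16 from ES cells to Day7. From ES cells to Day7 Lin28a was lowered 11.5-fold and Lin28b 4.37-fold, Xpo5 was lowered 2.72-fold and Ago1 raised 2.23-fold. That made 1 of 10 genes raised and 3 lowered, where 23.2% of all genes with a value were raised and 24.4% lowered. The counts are near those shares. The median log2 difference of the 10 genes was -0.03, against -0.07 for all genes.

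**Figure D1:**
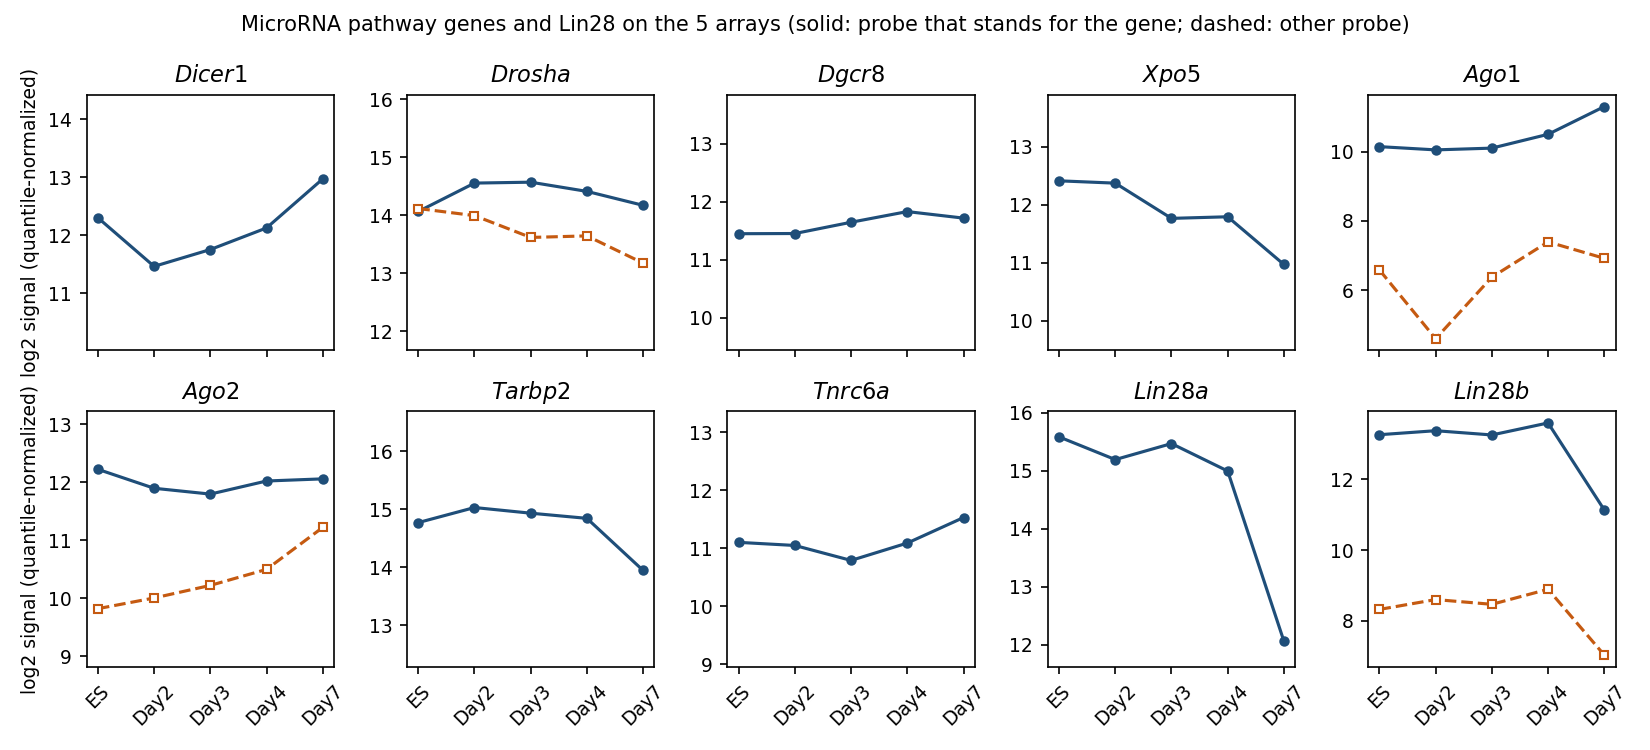
Quantile-normalized log2 signal (y axis) of each probe of the 10 genes on the 5 arrays (x axis, 1 array per time point); solid lines with filled circles are the probes that stand for the gene, dashed lines with open squares the other probes. Lin28a and Lin28b dropped on Day7, to 12.06 and 11.13, and the y axes differ between panels.

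Lin28a, known from its use with pluripotency factors in reprogramming, had a log2 signal of 15.58 in ES cells, 15.19 at Day2, 15.46 at Day3, 14.99 at Day4 and 12.06 at Day7. The first 4 arrays lay within 0.59 of each other, and Day7 was lower than any of them. The step from Day4 to Day7 was -2.93, or 83.3% of the difference between ES cells and Day7, and only 1.69% of all genes were lowered as much or more from ES cells to Day7. When arrays were aligned at their 75th percentile in place of quantile normalization, the log2 difference at Day7 was -4.09, and that from ES cells to Day4 was -1.10, past 2-fold, against -0.59 in the main setting.

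Lin28b, its paralog, was measured by 2 probes with the same highest and lowest time points. The probe that stands for the gene read 13.26 in ES cells, 13.37 at Day2, 13.25 at Day3, 13.59 at Day4 and 11.13 at Day7. The other read 8.32, 8.60, 8.46, 8.89 and 7.03 at the same time points. Both were highest on Day4 and lowest on Day7, and both were lowered over 2-fold from ES cells to Day7, by -2.13 and -1.29 on the log2 scale. From Day4 to Day7 the first probe fell by 2.46 on the log2 scale (5.50-fold). Of all genes, 7.23% were lowered as much as Lin28b from ES cells to Day7. ES cells and Day3 differed by 0.01, less than the spread between spots.

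The 2 genes differed before Day7. From ES cells to Day4 the log2 difference was -0.59 for Lin28a and 0.33 for Lin28b, both under 2-fold, and with the shift to the 75th percentile the latter was -0.12. Lin28b was nonetheless the gene of the 10 whose profile lay closest to that of Lin28a, at a Euclidean distance of 1.16 log2 units over the 5 arrays after each profile was centred on its mean.

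The 300-base promoters of both Lin28 genes are printed because in the main setting these 2 of the 10 genes were lowered from Day4 to Day7 (with the 75th percentile shift Tarbp2 passed 2-fold too, at -1.09). Each runs from 250 bases before the annotated start to 50 after it, on the strand of the gene, in RefSeq's annotation of GRCm38.p6. Capitals mark matches, on either strand, to the GC box GGGCGG, the CCAAT box and the E-box CACGTG, which do not overlap here.
Lin28a, chr4:134018767-134019066, minus strand: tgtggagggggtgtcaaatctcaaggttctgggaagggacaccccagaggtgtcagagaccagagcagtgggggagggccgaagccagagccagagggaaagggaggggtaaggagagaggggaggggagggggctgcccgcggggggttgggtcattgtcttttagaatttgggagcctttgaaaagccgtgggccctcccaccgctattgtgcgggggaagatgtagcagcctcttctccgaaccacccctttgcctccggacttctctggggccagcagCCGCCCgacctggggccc
Lin28b, chr10:45470152-45470451, minus strand: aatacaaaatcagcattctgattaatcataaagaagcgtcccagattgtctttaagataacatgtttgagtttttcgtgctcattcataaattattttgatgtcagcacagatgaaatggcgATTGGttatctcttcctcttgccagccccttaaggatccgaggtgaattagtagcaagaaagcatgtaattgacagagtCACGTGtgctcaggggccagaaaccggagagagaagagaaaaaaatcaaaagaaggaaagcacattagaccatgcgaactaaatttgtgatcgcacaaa
The Lin28a promoter held 1 GC box and neither of the other 2 motifs, and 63.3% of its bases were G or C. The Lin28b promoter held 1 CCAAT box and 1 E-box, with 39.0% G or C. Among all 32851 promoters of this length in the table, 35.7% held a GC box, 37.4% a CCAAT box and 7.15% this E-box, and the mean share of G and C was 53.8%. The octamer ATGCAAAT, found in 1.74% of all promoters, and TATAAA, found in 13.6%, were in none of the 10 promoters listed for 9 of the 10 genes (Ago1 had 2 and Ago2 was not listed). A GC box was in 7 of these 10 and a CCAAT box in 7.

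The Day7 culture also differed in its cell type markers. Of 7 genes that mark pluripotent cells, 5 were lowered from ES cells to Day7, and the summed signal of the list, on the linear scale, was 239656 in ES cells, 165925 at Day2, 119641 at Day3, 81008 at Day4 and 35858 at Day7. A single gene, Dppa5a, made up 81.3% of the sum in ES cells, and without it the sums were 44822, 14894, 11795, 10383 and 7396. All 7 were well above background on every array, and they did not move together. At Day3, 3 of the 7 were lowered, at Day4 6, and Nanog differed by 0.78 at Day4 and by -0.40 at Day7 from ES cells. From Day4 to Day7 4 of the 7 were lowered. All 5 measured motor neuron markers and all 6 general neuron markers were raised from ES cells to Day7, and their summed signals went from 1193 to 70644 and from 13654 to 371793. Of 6 fibroblast markers, which a feeder layer would also carry, 4 were raised and 1 lowered from ES cells to Day7. Their summed signal lay at 3182 in ES cells, 2021 at Day2, 2745 at Day3, 4723 at Day4 and 10057 at Day7. Without Col1a2, the brightest of them at Day3 and Day4, the sums were 2946, 1583, 941, 1155 and 8166, so that Day4 lay below ES cells. In ES cells Thy1 was brightest (log2 signal 10.99, Col1a2 7.88), and on Day7 Dcn was (12.55, Col1a2 10.89). How far the Day7 sum rests on Dcn was not tested. Postn was well above background on Day7 alone. Other lists moved in the interval in which the Lin28 genes were lowered. From Day4 to Day7 the 3 endoderm and mesoderm markers with a value (of 7 listed) were lowered, with a median of -3.85, and of 5 neural progenitor markers 2 were lowered, Pax6 by -5.11 and Olig2 by -4.12, and 1 was raised. Of 5 glia markers 1 was raised in that interval, and their summed signal was 3041 in ES cells, 4221 at Day4 and 7219 at Day7 (without Mbp, which made up 53.4% of the sum in ES cells, 1418, 1115 and 2438). The part of these shifts in the Lin28 values was not tested. In a bulk sample, fewer cells that express a gene and less RNA per cell cannot be told apart.

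The nuclear steps gave small values in the main setting. Drosha, the RNase III enzyme of the microprocessor, had 2 probes. The one that stands for the gene read 14.06 in ES cells, 14.55 at Day2, 14.57 at Day3, 14.41 at Day4 and 14.17 at Day7, highest in the middle of the course. The other read 14.12, 13.99, 13.62, 13.64 and 13.17, highest in ES cells. Their log2 differences from ES cells to Day7 in the main setting were 0.11 and -0.94, under 2-fold on both and opposite in sign. With the shift to the 75th percentile the first was -0.64, and the second was not followed with that shift. Before normalization the linear signal of the second probe was 26721 in ES cells and 11508 on Day7, past 2-fold.

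Dgcr8, the RNA-binding partner of Drosha, read 11.45 in ES cells, 11.45 at Day2, 11.65 at Day3, 11.83 at Day4 and 11.72 at Day7. Its whole range was smaller than that of any of the other probes that stand for a gene, and ES cells and Day2 could not be ordered.

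Xpo5, the exportin that carries hairpin precursors out of the nucleus, read 12.41 in ES cells, 12.37 at Day2, 11.76 at Day3, 11.79 at Day4 and 10.97 at Day7. It stood on 3 levels, ES cells with Day2, Day3 with Day4, and Day7 below. The log2 difference from ES cells was -0.65 on Day3 and -1.44 on Day7, and 57.0% of the latter came after Day4. Across the alternative settings the value at Day7 lay between -1.76 and -1.40, past 2-fold in each. Ran, the GTPase that Xpo5 needs for export, had a log2 difference of -0.89 at Day7 on the probe that stands for it (-1.85 with the shift to the 75th percentile) and of -0.02 on its other probe.

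Dicer1, the enzyme that cuts the hairpin to the mature duplex and the gene whose deletion the study used to remove miRNAs, had 1 probe. It read 12.30 in ES cells, 11.46 at Day2, 11.75 at Day3, 12.12 at Day4 and 12.97 at Day7. In the main setting Day2 was lowest and Day7 highest. The order depends on the scaling, since without normalization the log2 differences from ES cells were -0.95 at Day2, -1.31 at Day3 and -1.45 at Day4, and how far single samples of a time point would vary was not measured. The log2 difference from ES cells was -0.84 on Day2 and 0.67 on Day7, under 2-fold in both cases. With the 75th percentile shift the value on Day2 was -1.18, past 2-fold, and that on Day7 was 0.21. The lowest value rests on the Day2 array, which stood apart, and 13.6% of all genes were lowered as much from ES cells to Day2. In the main setting Day3 and Day4 also lay below ES cells, with log2 differences of -0.55 and -0.18.

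Tarbp2, the double-stranded RNA-binding partner of Dicer1, read 14.77 in ES cells, 15.03 at Day2, 14.93 at Day3, 14.84 at Day4 and 13.95 at Day7. The first 4 arrays were close together and Day7 was lowest. The log2 difference from ES cells to Day7 was -0.82 in the main setting, under 2-fold, but -1.53 with the shift to the 75th percentile and in the deposited table, past 2-fold. Thus Dicer1 and Tarbp2, whose products work together, had differences of opposite sign at Day7 in the main setting and in each alternative.

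Of the Argonautes, Ago1 read, on the probe that stands for it, 10.15 in ES cells, 10.05 at Day2, 10.10 at Day3, 10.50 at Day4 and 11.30 at Day7. ES cells, Day2 and Day3 lay within 0.09 of each other, and Day7 was highest. The log2 difference of 1.16 at Day7 was past 2-fold. The other Ago1 probe read 6.58, 4.59, 6.37, 7.39 and 6.92 and was highest on Day4, and the mean over both probes gave 0.75 at Day7, under 2-fold.

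Ago2, the Argonaute that can cut a fully paired target, gave different accounts by its 2 probes. One read 12.23 in ES cells, 11.90 at Day2, 11.80 at Day3, 12.02 at Day4 and 12.06 at Day7. The other read 9.82, 10.01, 10.23, 10.50 and 11.22, going up at each time point. The log2 differences from ES cells to Day7 were -0.16 and 1.40, so the second was raised past 2-fold and the first, which stands for the gene, was not. The gap between them is wider than the median of 0.56 among genes with 2 probes and below the 90th percentile of 1.85. Which probe follows the Ago2 mRNA was not tested.

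Tnrc6a read 11.10 in ES cells, 11.05 at Day2, 10.79 at Day3, 11.09 at Day4 and 11.53 at Day7. ES cells, Day2 and Day4 lay within 0.05 of each other, and the log2 difference at Day7 was 0.43, under 2-fold.

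The plot of changes from ES cells sets these values against the whole array. On Day2, Day3 and Day4 none of the 10 genes was raised or lowered 2-fold against ES cells, with log2 differences between -0.84 and 0.50. Over all genes with a value, 8.82% were raised and 11.3% lowered on Day2, 14.2% and 10.2% on Day3, and 15.4% and 14.2% on Day4. With the 75th percentile shift these shares were 16.5% and 7.01% on Day2, 12.8% and 15.1% on Day3, and from Day2 to Day3 they were 5.82% and 17.0%. Between successive time points, none of the 10 passed 2-fold from Day2 to Day3 (all genes 13% raised and 7.76% lowered) or from Day3 to Day4 (3.62% and 4.85%). From Day4 to Day7 none was raised and 2 were lowered, Lin28a and Lin28b (3 with the 75th percentile shift, which adds Tarbp2), with 17.8% of all genes raised and 18.1% lowered.

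**Figure D2:**
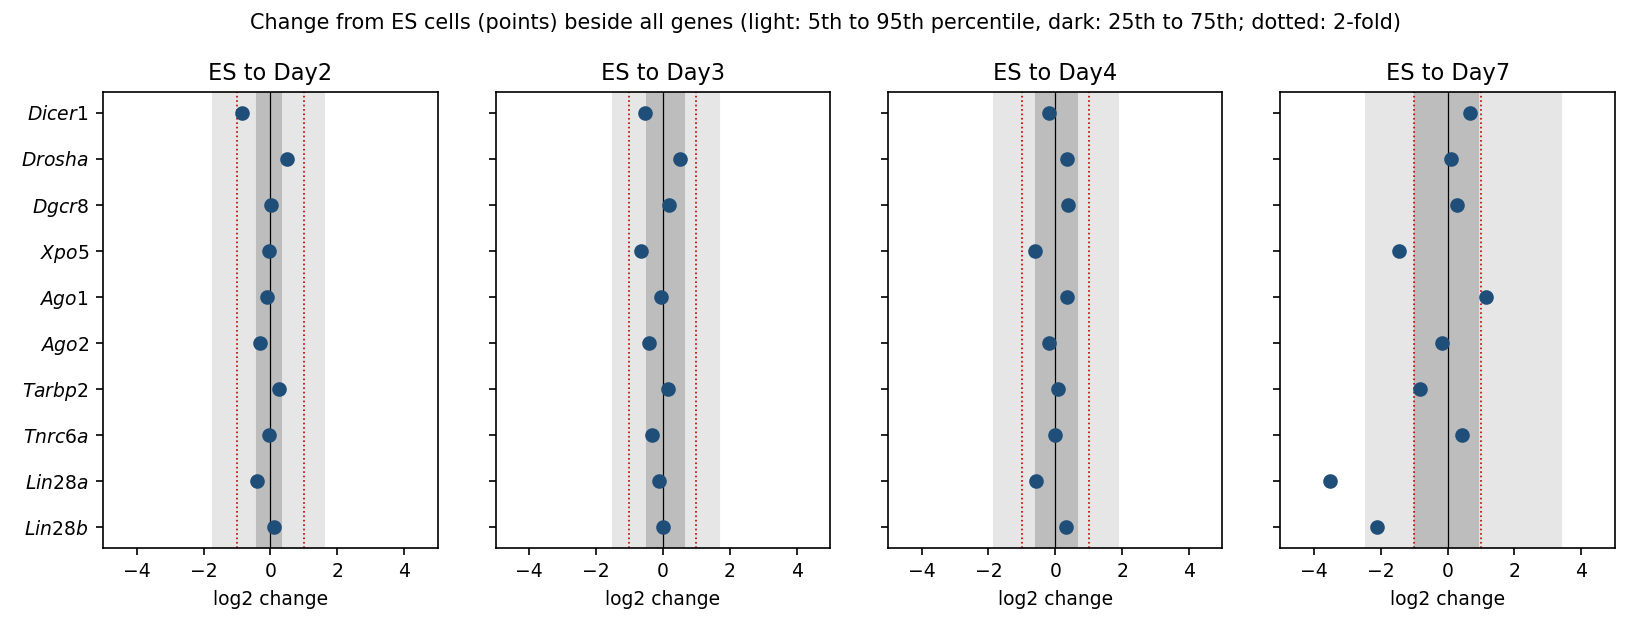
Log2 difference from ES cells (x axis) of the 10 genes (points, y axis) on Day2, Day3, Day4 and Day7, with the middle 90% (light) and middle 50% (dark) of all genes as bands and 2-fold as dotted lines. Lin28a at Day7, at -3.52, is the only point outside the light band, and the 8 genes other than Lin28a and Lin28b lie between -1.44 and 1.16.

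**Figure D3:**
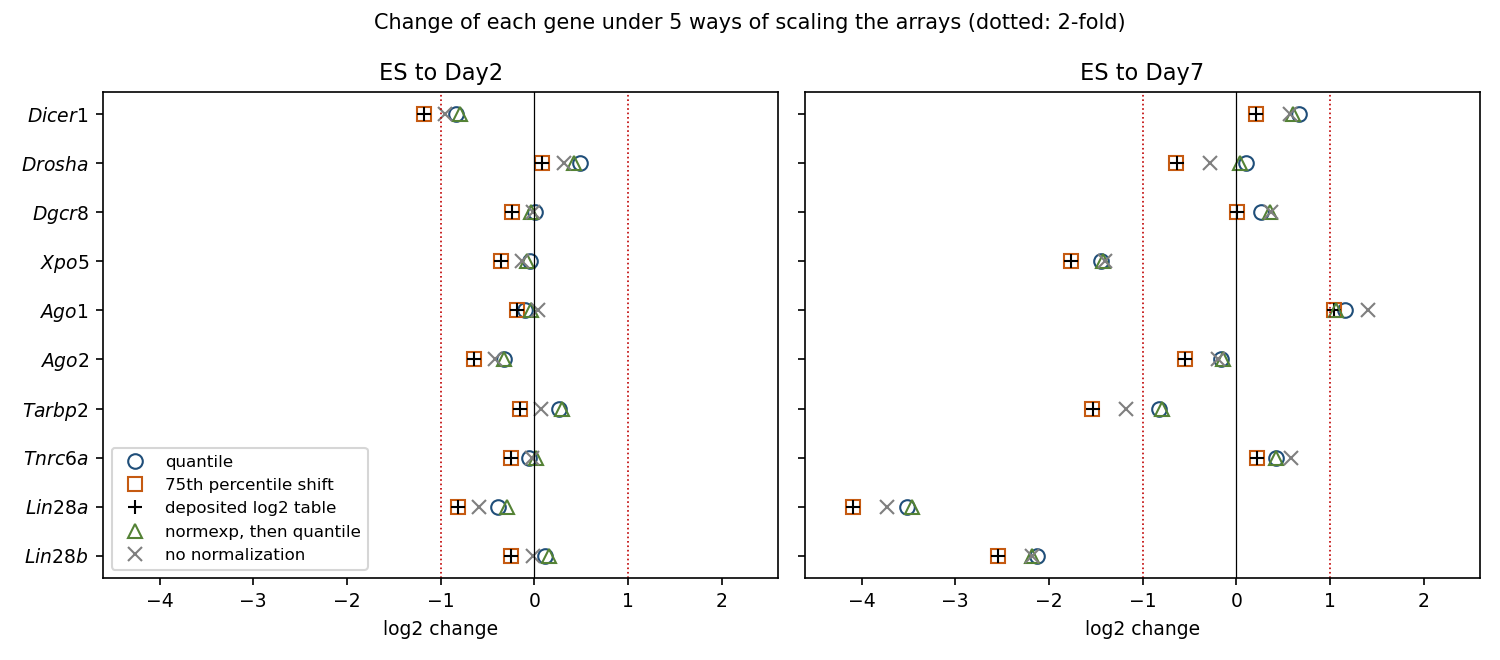
Log2 difference (x axis) of the 10 genes (y axis) from ES cells to Day2 and to Day7 under 5 ways of scaling the arrays (symbols), with 2-fold as dotted lines. Lin28a, Lin28b, Xpo5 and Ago1 stay beyond 2-fold at Day7 in all 5, whereas Tarbp2 lies at -0.82 under quantile normalization and at -1.53 with the 75th percentile shift.

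The wider pathway was described by 78 genes in 6 lists, all of them with a probe. From ES cells to Day7, 14 were raised and 17 lowered, which is 17.9% and 21.8% against 23.2% and 24.4% of all genes, and the median log2 difference was -0.14. The order of the lowered shares turned with the scaling: with the shift to the 75th percentile 7.69% of the lists were raised and 37.2% lowered, against 20.8% and 32.3% of all genes. From Day4 to Day7 there were 5 raised and 11 lowered, which is 6.41% and 14.1%, against 17.8% and 18.1% of all genes.

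Among 13 other Argonaute, GW182 and silencing-complex proteins, 3 were raised (23.1%) and 4 lowered (30.8%), with a median of -0.37, where all genes had 23.2% raised and 24.4% lowered. Ago4, another Argonaute, was raised by 2.67 on the log2 scale, with 7.74 in ES cells and 10.41 on Day7. Tnrc6c, another GW182 protein, was raised by 1.68, whereas Tnrc6b differed by 0.76 and Ago3 by -0.35. Trim32, a ubiquitin ligase that binds Argonaute, was raised by 1.48 (0.87 with the shift to the 75th percentile). Ajuba and Wtip, LIM proteins that bind Argonaute, were lowered by -2.62 and -1.42 on the log2 scale, Mov10, an RNA helicase, by -1.26, and Fxr1, a relative of the fragile X protein, by -1.25 (-0.94 on its other probe). With the 75th percentile shift the list had 2 raised and 7 lowered (all genes 20.8% and 32.3%).

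The partners of export, dicing and loading had 3 of 9 genes raised (33.3%, all genes 23.2%) and none lowered (all genes 24.4%), with a median of 0.41. Prkra (PACT), the other double-stranded RNA-binding partner of Dicer1, read 9.88, 10.33, 10.88, 10.85 and 11.52 over the 5 arrays and was raised by 1.64 at Day7, against the -0.82 of Tarbp2. Tsnax, a subunit of the C3PO nuclease that helps to load the silencing complex, was raised by 1.43 (0.79 with the shift to the 75th percentile). Adar, an RNA-editing enzyme, was raised by 1.09 on the probe that stands for it (0.85 with that shift), and its other probe gave -1.12. The balance of this list turned with the scaling: the shift to the 75th percentile gave 1 raised, 2 lowered and a median of -0.20. Of all genes 20.8% were raised and 32.3% lowered with that shift.

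Of 12 accessory microprocessor factors, the helicases Ddx17 and Ddx5 were raised, by 1.16 and 1.04, on the probes that stand for them, and Srrt (ARS2), which joins the cap-binding complex to miRNA processing, was lowered by -1.42, which makes 16.7% raised and 8.33% lowered against 23.2% and 24.4% of all genes. The other Ddx17 probe gave 0.14 and the lowest of 3 Ddx5 probes -0.54, and with the mean over probes no gene of the list was raised. With the 75th percentile shift the helicases gave 0.18 and 0.25, under 2-fold. The list then had 0 raised and 4 lowered (all genes 20.8% and 32.3%). Of 18 deadenylation and decapping genes none was raised (all genes 23.2%). Dcp2, the decapping enzyme, and Cnot1, the scaffold of the CCR4-NOT complex, were lowered by -1.51 and -1.07. That is 11.1% lowered, against 24.4% of all genes (5 of 18 with the shift, all genes 32.3%).

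**Figure D4:**
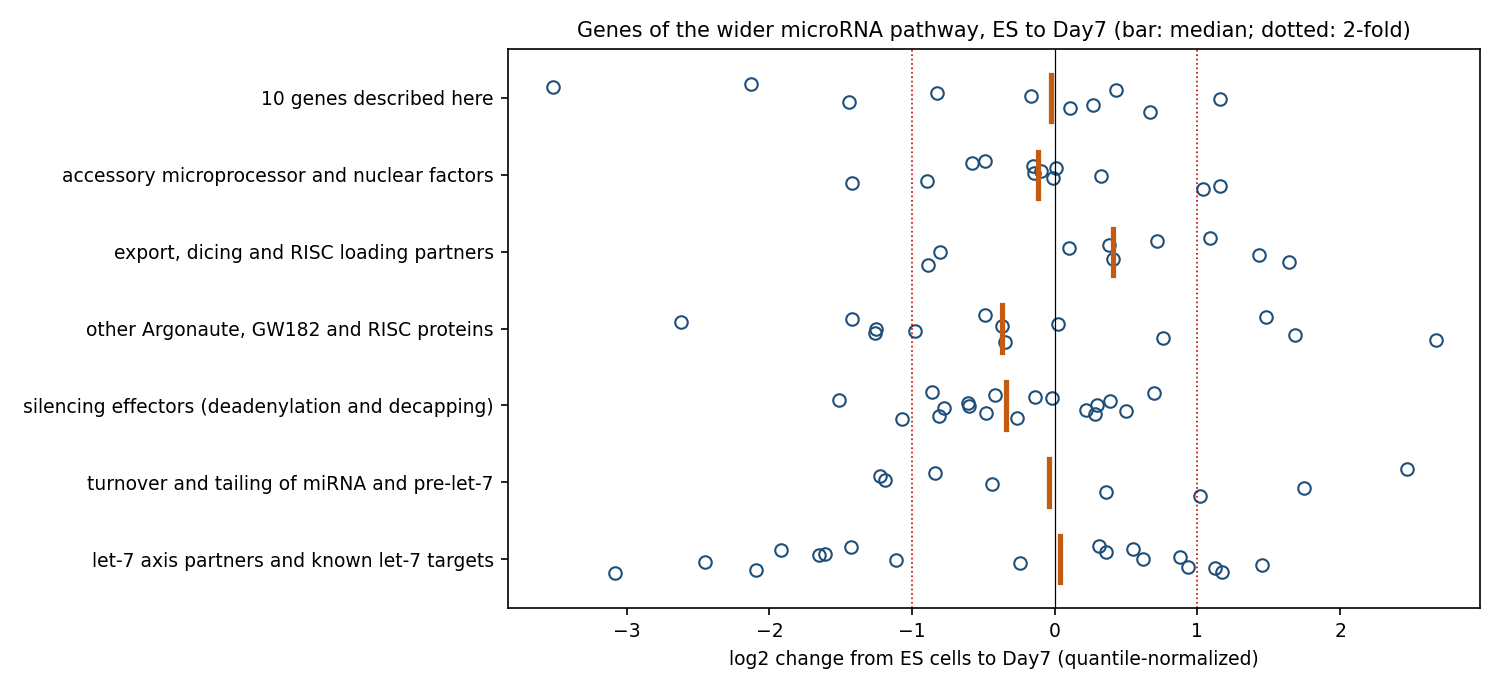
Log2 difference from ES cells to Day7 (x axis, quantile-normalized) of each gene (open circles) in the 10 genes described here and in 6 lists of the wider miRNA pathway (y axis), with the median of each list as a bar and 2-fold as dotted lines. The let-7 axis list splits, with 8 of 18 genes below -1 and 3 above 1, and its median lies at 0.04.

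The genes that act on precursor let-7 or on miRNA decay numbered 8, of which 3 were raised (37.5%, all genes 23.2%) and 2 lowered (25%, all genes 24.4%). The balance turned with the 75th percentile shift, to 2 raised and 3 lowered (all genes 20.8% and 32.3%). Lin28a recruits the terminal uridylyltransferases Tut4 and Tut7, and the exonuclease Dis3l2 degrades the tailed precursor. Dis3l2 read 11.34, 11.87, 12.05, 12.32 and 13.09, highest on Day7, and was raised by 1.75. Tut4 was raised by 1.02 on the probe that stands for it, with -0.41 on the other probe and 0.62 with the 75th percentile shift, and Tut7 differed by 0.36. Zswim8, the receptor of a ubiquitin ligase that degrades Argonaute bound to some targets, was raised by 2.47 and had passed 2-fold by Day2, with log2 signals of 11.80, 13.20, 13.74, 13.74 and 14.27. Parn and Pnpt1, a pair of 3′ exonucleases, were lowered by -1.23 and -1.19.

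Partners of the let-7 axis and known let-7 targets had 8 of 18 genes lowered (44.4%, all genes 24.4%) and 3 raised (16.7%, all genes 23.2%). Trim71, a let-7 target of early embryos, read 14.06 in ES cells, 13.17 at Day2, 13.00 at Day3, 13.01 at Day4 and 10.98 at Day7, a log2 difference of -3.08 with -3.03 on its other probe. Igf2bp1, an RNA-binding protein of embryonic cells, was lowered by -2.10, and its log2 difference from ES cells was -0.07 at Day4. Mycn was lowered by -2.45 at Day7 but had already differed by -2.92 on Day2, and the orphan receptor gene Nr6a1 had differed by 1.51 on Day4 before it was lowered by -1.92 on Day7. Ccnd1 (cyclin D1) was lowered by -1.65. On the other side, Hmga2, an architectural chromatin protein and a well-studied let-7 target, was raised by 1.17, with 1.22 on its other probe and 0.92 with the shift to the 75th percentile. Arid3a and Igf2bp2 were raised by 1.45 and 1.12, with 0.16 and 1.28 on their other probes. Aligned at the 75th percentile they gave 1.19 and 0.86, the latter under 2-fold. With the 75th percentile shift the list still had 8 genes lowered (all genes 32.3%), and 1 raised (all genes 20.8%).

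**Figure D5:**
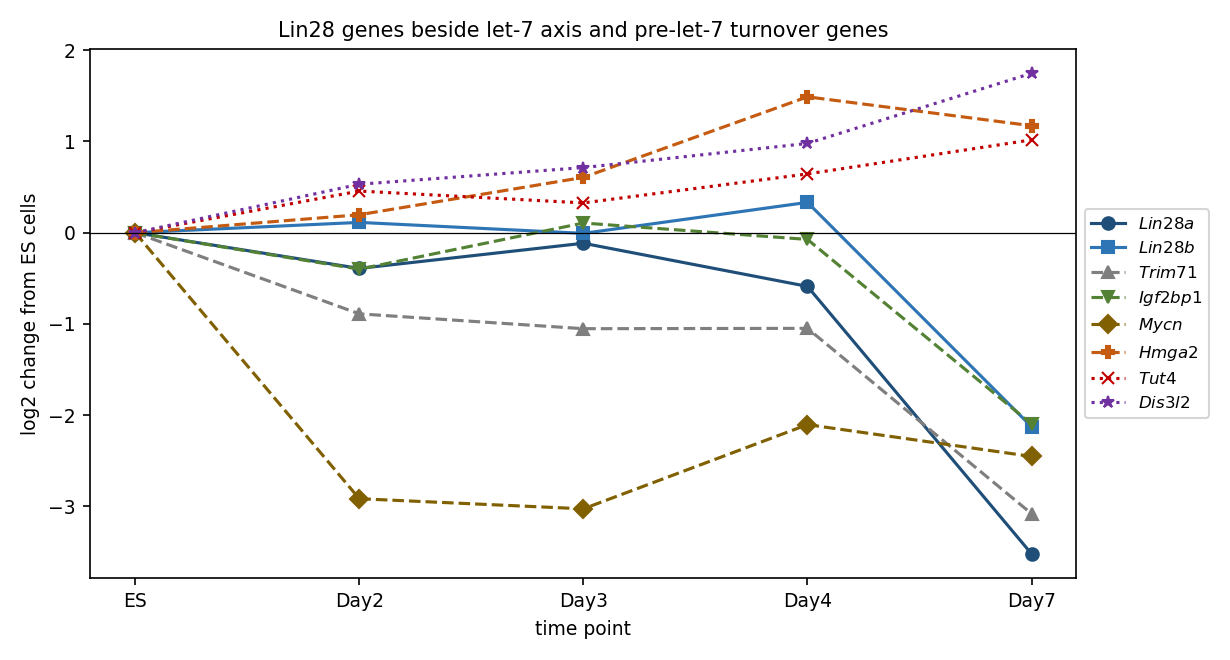
Log2 difference from ES cells (y axis) at the 5 time points (x axis) for Lin28a and Lin28b (solid lines), 4 let-7 axis genes (dashed) and 2 genes of precursor let-7 turnover (dotted). Trim71 and Igf2bp1 have their largest step from Day4 to Day7, as the Lin28 genes do, whereas Mycn drops on Day2 and Hmga2 rises to 1.49 on Day4.

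The genes whose profiles lay closest to a member were found among 18632 genes well above background on at least 1 array, by Euclidean distance of the centred log2 profiles over the 5 arrays. For Lin28a these were Aurkb, Sall4, Apoe, Ripk3 and Lama5, at distances from 0.27 to 0.41 log2 units, and their log2 differences from ES cells to Day7 lay between -3.63 and -3.20. For Lin28b they were F3, Pdlim1, Atad2, Prpf19 and Srf, at 0.16 to 0.28. For Dicer1 they were Man1a2, Pard6g, Nrsn2, Map9 and Rfx3, at 0.10 to 0.21, each with its lowest signal on Day2 and its highest on Day7. Over 5 arrays a close profile is a description of these arrays alone.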

How the data were processed

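Total RNA of 5 samples was hybridised to Agilent one-colour 8x60K arrays, 1 per time point, which sets the precision. The authors deposited scanner output from Agilent Feature Extraction 10.5.1 (per the labels), in which the spot intensity was background-subtracted but arrays were not scaled to each other. Their deposited log2 table, within 0.01, equals the log2 intensity minus the 75th percentile of each array for about 99.5% (Day2) to 99.6% (Day7) of probes. Control and outlier spots were left out, replicate spots were averaged, and arrays were quantile-normalized with limma 3.58.1 in R 4.3.3, since the legend of the study's heat map names a quantile method. Python 3.11.15, numpy 2.4.6, pandas 2.3.3 and matplotlib 3.10.9 were used for the rest.

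Of 55681 mouse probes, 26300 matched a symbol through RefSeq accessions (GRCm38.p6, names only), giving 19897 genes. Where a gene had several probes, the one with the highest mean signal stood for it. A probe not well above background was raised to the lowest value flagged well above background on that array, unless it exceeded it. Genes dim on both arrays had no value, and those not exceeding this level counted as 0. The script was tested on simulated data with noise within an array only, which says nothing of the spread between samples.

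The members and gene lists were chosen with earlier results of these data known. Named were all members, up to 5 genes of a list with the largest change past 2-fold in each direction, and the 5 nearest profiles for Lin28a, Lin28b and Dicer1. Other genes named beside them were picked after their values were seen. They were Ran, Tut7, Ago3, Tnrc6b, and the markers Dppa5a, Nanog, Pax6, Olig2, Col1a2, Thy1, Dcn, Postn and Mbp. Alternatives were the 75th percentile shift, no normalization, normexp with an offset of 50, the deposited table, another detection flag, 3 treatments of dim probes, the mean over probes, and 1.5-fold and 4-fold thresholds. Motifs were counted on both strands of RefSeq promoters.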

Additional observations from a re-analysis of the deposited data

How the results depend on the processing

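No call among the 10 genes turned its direction under the alternatives. The log2 difference of Lin28a from ES cells to Day7 lay between -4.09 and -3.46, that of Lin28b between -2.54 and -1.71, and that of Xpo5 between -1.76 and -1.40, all past 2-fold, whereas Ago1, from 0.75 to 1.41, lost its call with the mean over both probes. Counts that moved are given here, with the share of all genes past the same size where it was taken. Lowered from ES cells to Day2 were 0 genes in the main setting and 1 with the 75th percentile shift or the deposited table (Dicer1, all genes 7.01% and 7.03%). The count was also 1 at 1.5-fold (Dicer1, all genes 19.3%) and with the mean over probes (Ago1, all genes 11.3%). Lowered from ES cells to Day3 were 0, but 4 without normalization (all genes 32.9%) and 1 at 1.5-fold (all genes 20.7%). Lowered from ES cells to Day4 were 0, but 1 with the 75th percentile shift or the deposited table (Lin28a, all genes 18.6% in each). The count was 8 without normalization (all genes 52.7%) and 2 at 1.5-fold (all genes 24.4%). Raised from ES cells to Day7 was 1, but 0 with the mean over probes (all genes 22.6%) or at 4-fold and 2 at 1.5-fold (all genes 31.4%). Lowered from ES cells to Day7 were 3, but 4 with the 75th percentile shift, the deposited table, no normalization or 1.5-fold (Tarbp2 added) and 2 at 4-fold. Of all genes 32.3%, 32.2%, 22.8% and 35.5% were lowered in the settings that gave 4. Lowered from Day2 to Day3 were 0, but 1 (Xpo5) without normalization or at 1.5-fold (all genes 39.4% and 14.1%). Lowered from Day3 to Day4 were 0, but 1 (Lin28a) without normalization (all genes 9.94%). Raised from Day4 to Day7 were 0, but 5 without normalization (all genes 52.1%) and 2 at 1.5-fold (all genes 25.6%). Lowered in that interval were 2, but 3 with the 75th percentile shift or the deposited table (Tarbp2 added, all genes 20.9% and 20.8%). At 1.5-fold 4 were lowered (all genes 31.1%). Scaling moved all genes: the median over all genes shifted with the 75th percentile by -0.19 from ES cells to Day3, -0.12 to Day4, -0.29 to Day7 and -0.13 from Day4 to Day7, and without normalization by 0.20 from ES cells to Day2, -0.69 to Day3, -1.08 to Day4, -0.81 from Day2 to Day3, -0.47 from Day3 to Day4 and 1.18 from Day4 to Day7. The share of raised among called genes from ES cells to Day2 was 43.9% in the main setting, 70.2% with the 75th percentile and 82.9% without normalization. It was 29.5% among genes well above background on both arrays. From Day2 to Day3 these settings gave, in that order, 62.6%, 25.5%, 3.41% and 76.0%, and from ES cells to Day3 58.1%, 45.9%, 16.2% and 57.3%. Without normalization the share of raised genes went from 52.0% to 8.12% between ES cells and Day4 and from 49.5% to 94.0% between Day4 and Day7. From Day3 to Day4 it was 42.7%, with 20.1% without normalization and 53.0% with normexp. No paired analysis was possible because no time point had a second array, and for the same reason no array could be left out. Slide could not be fitted as a block, since the second slide held 1 array, Day7.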

Other observations

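The arrays also held probes for 4 host transcripts of miRNA genes, found by their symbols after the values were seen. Mir124-2hg, a host of the neuronal miR-124, was at background level in ES cells and at Day2, and read 6.71 at Day3, 8.85 at Day4 and 10.06 at Day7 (quantile-normalized log2 signal). It was thus at least 33.1-fold higher on Day7 than in ES cells, a bound that was 3.62 on the log2 scale with normexp and 5.20 with the 75th percentile shift. Mir17hg, the host of the miR-17 to miR-92 cluster, read 12.81 in ES cells, 12.38 at Day2, 12.22 at Day3, 12.20 at Day4 and 10.23 at Day7. Its log2 difference from ES cells to Day7 was -2.58, of which -1.97 lay between Day4 and Day7, the interval in which the Lin28 genes were lowered. Mir22hg read 8.15, 6.88, 8.19, 8.45 and 7.16 and was lowest on the Day2 array, which stood apart. Mirg, a transcript of the imprinted Dlk1-Dio3 region, read 13.04, 12.76, 13.07, 12.61 and 13.19 and did not pass 2-fold against ES cells at any time point. A host transcript is not a measure of the mature miRNA.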
